A study of Mus musculus with 37 samples.

Results

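Zfp followed by a number is the name that mouse nomenclature gives to zinc finger proteins not named for another function. The 438 open reading frames (ORFs) that carry such a name were taken from a list of 22367 ORFs scored as translated in mouse dendritic cells. A family holds the ORFs of 1 listed name on 1 chromosome and strand. A further entry of a gene, marked by a number after its name, is a family of its own. A family was kept where its gene name was Zfp, digits and at most 1 letter. Zfp36 was left out, since it encodes an RNA-binding protein with zinc fingers of another kind. The rule gave 209 families with 207 gene names, of 10418 families with 10253 names in all.

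Most proteins with this name carry rows of C2H2 zinc fingers, small folds in which cysteines and histidines hold a zinc ion and a helix reads DNA bases. Many of them also carry a KRAB box near the N terminus, which binds the corepressor Trim28 and through it the histone methyltransferase Setdb1, so that bound DNA is packed into heterochromatin. KRAB zinc finger genes lie in clusters that arose by gene duplication, and several of their products silence retroviruses and other transposed elements. The fingers of such a protein are usually encoded together in a large last coding exon, while the KRAB box lies on small exons before it.

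The list was made from ribosome footprints, the RNA fragments that ribosomes protect from nuclease, of dendritic cells grown from the bone marrow of C57BL/6J mice aged 6 to 8 weeks. Lipopolysaccharide (LPS), a bacterial product sensed through Tlr4, was given at 100 ng/mL for 8 times from 0.5 to 12 h. The 37 libraries were 16 of LPS, 8 of mock treatment and 2 of naive cells with cycloheximide (100 ug/mL, 1 min), 8 of LPS and 1 of naive cells with no inhibitor, and 1 each of LPS-stimulated mixed times with harringtonine (1 ug/mL, 5 min) or lactimidomycin (50 ug/mL, 30 min). All libraries entered 1 list, so a value has no replicate spread, the depth behind it is unknown, and the LPS, mock and naive cells could not be set against each other here. No test was made. Many shares are given with their exact 95% Clopper-Pearson interval, and beside the same share over the other families or over all families. Shares without an interval have a counting error too. The intervals cover counting error only, and ORFs of 1 family share a gene and its footprints.

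The score is the authors' own value per ORF, from 500 to 991 in this list, and is used here only to rank and describe. Whether an ORF is listed, and its score, can move with how strongly a gene was expressed, which the list does not give. Of the markers checked, ORFs of 10 of 12 dendritic cell genes were listed (not Flt3 and Cd209a), with 5 of 6 macrophage and 7 of 7 neutrophil genes. So were 3 of 3 fibroblast, 2 of 3 mast cell, 1 of 3 B cell and 0 of 3 T cell genes. Over all protein-coding symbols, 43.1% had a listed ORF. Few genes were checked per type, so the presence of a cell type is not read from these counts. The list does not separate cell types, so Zfp ORFs of any other cells in the culture cannot be told apart from those of dendritic cells.

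The longest ORF of a family was taken as its main ORF, and the others were placed by position and reading frame against it. Besides the 209 main ORFs, 75 ORFs lay upstream of the main start (17.1% of the 438 ORFs, against 12.7% in the other families) and 11 ran across the main start (2.51% against 3.11%). Another 65 ended at the main stop in its frame but began elsewhere, and are called other in-frame starts (14.8% against 15.2%), and 21 had the main start and stop but other exons between them (4.79% against 11.0%). The rest were 26 in-frame isoforms with another stop (5.94% against 3.95%), 18 ORFs within the main span (4.11% against 5.62%) and 13 downstream (2.97% against 1.65%). Of the 13, 5 were under the name Zfp51, on transcripts without the main start. The long downstream ORFs of Zfp429, Zfp747 and Zfp874a, described further on, also lay on such transcripts. The downstream share therefore includes ORFs far from the main ORF. No ORF of the 438 ran across the main stop. A family with nothing but its main ORF made up 90 of 209 families (43.1%, interval 36.3 to 50.1), with 43.7% over all families.

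The main ORFs of the zinc finger families were long and built mostly of 1 exon. Their median length was 587 codons, with quartiles of 470 and 726, against 430 codons with quartiles of 255 and 707 in the other families. They had a median of 4 coding exons against 9, and the largest of these exons held a median of 83.2% of the coding bases against 25.2%. In 148 of 209 families (70.8%, interval 64.1 to 76.9) that largest exon was the last coding one and held over 50% of the ORF, where 15.5% of all families had this layout. The stop codon lay in the last exon of the transcript in 193 of 208 families with a junction (92.8%, against 89.4%). Transcripts of both sets had leaders of like length before the main start, with medians of 196 and 186 bases.

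The same main ORFs had lower scores than those of other genes. The median score was 835 with quartiles of 696 and 918, against 927 with quartiles of 800 and 969. A score of 900 or more was given to 62 of 209 (29.7%, interval 23.6 to 36.4), where 56.7% of all families reached it. Among families with a main ORF of 470 to 726 codons, the median was 835 for the 105 zinc finger families and 916 for the 2200 others, so lower scores were also seen between ORFs of like length. Exon layout moved with the score in both sets. Families with over 50% of the ORF in the last coding exon had medians of 815 (148 zinc finger families) and 884 (1463 others), while families of another layout had medians of 872 (61) and 931 (8746).

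**Figure D1:**
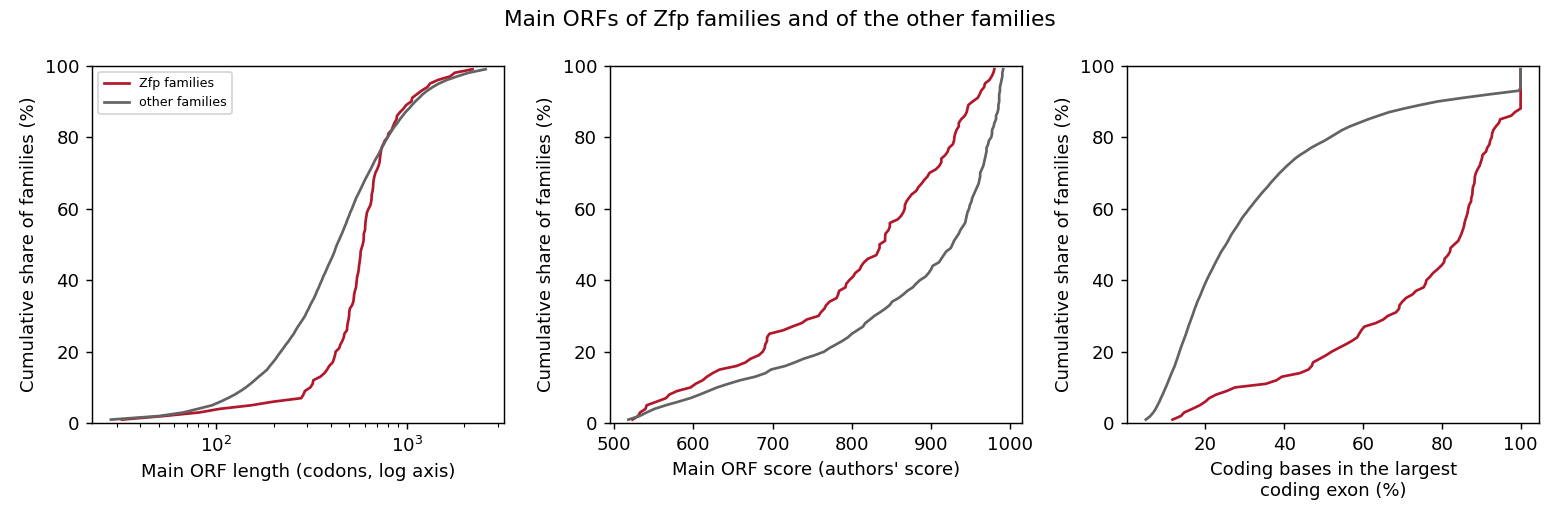
Cumulative share of families (percent) by main ORF length in codons on a log axis (left), main ORF score (middle) and percent of coding bases in the largest coding exon (right), for 209 Zfp families (red) and 10209 other families (grey). The red line lies to the right for length below its upper quartile and for the largest exon, and to the left for score.

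The 3 highest main scores went to proteins with roles outside KRAB silencing. Zfp207, known as BuGZ, which loads the checkpoint protein Bub3 onto chromosomes in mitosis, had a main ORF of 495 codons scoring 990. Zfp330, a nucleolar protein, followed with 316 codons and 984, and Zfp326, which in human is part of a complex that links transcription to splicing, with 580 codons and 980. Zfp26 and Zfp84 both scored 979, with 959 and 559 codons. Only these last 2 of the 5 had over 50% of the ORF in the last coding exon (79.0% and 85.3% in the largest exon). Zfp592, a partner of the chromatin reader ZMYND8 in human cells, scored 977 over 1262 codons, while its relative Zfp687 scored 875 over 1237.

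The lowest main scores were 518 for Zfp119a (545 codons) and Zfp472 (543 codons), 523 for Zfp68 (606 codons), 525 for Zfp598 (20 codons) and 530 for Zfp873 (664 codons). In Zfp119a, Zfp472 and Zfp68 a shorter ORF with the main stop scored above the main ORF, as described with the in-frame starts.

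Main ORFs ran from 2 to 2698 codons. The longest main ORF was that of Zfp292, with 2698 codons and a score of 848, followed by Zfp407 (2246 codons, 931) and Zfp318 (2237 codons, 793), the factor that mature B cells need to make IgD. Zfp106, an RNA-binding protein needed for motor neuron upkeep, had 1888 codons at 952, and Zfp646 had 1785 codons at 652. Zfp292 and Zfp646 had nearly all of the ORF in 1 exon, at 87.5% and 98.1%, while the largest exon of Zfp106 held 38.3%.

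Of 24 names picked for their known roles, 20 had an ORF, where 51.1% of all Zfp symbols and 43.1% of all protein-coding symbols did. The names were chosen with earlier results of these data known, so nothing is read from that count. Zfp809, which silences murine leukemia virus by binding its primer binding site, had 1 ORF of 351 codons scoring 758. Zfp445, which with Zfp57 protects imprinted regions, had a main ORF of 986 codons scoring 884, and Zfp568, a repressor of a placental Igf2 transcript, had 671 codons at 532. Zfp143, an activator bound at many promoters, had 653 codons at 842, Zfp148 had 794 at 909 and Zfp281, a regulator of pluripotency, had 919 at 664. Zfp217, whose human counterpart is an oncogene, had 1062 codons at 888, and Zfp335, needed for T cell maturation, had 1337 at 880. Zfp622, which takes part in making the large ribosomal subunit, had 486 codons at 872. Zfp830, needed for genome stability in the early embryo, had 363 at 796, and Zfp639 had 180 at 634. Zfp57, Zfp91, Zfp131 and Zfp384 had no ORF in the list under these names. Zfp366, the gene of the human dendritic cell protein DC-SCRIPT and picked after its values were seen, had 1 ORF of 746 codons scoring 835, the median of the families.

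Of 393 protein-coding Zfp symbols in the RefSeq gene table, 201 had a listed ORF (51.1%, interval 46.1 to 56.2), where 43.1% of all 21900 protein-coding symbols did. With older names counted too, 215 of them did (54.7%, against 46.0%). Zfp783 is a long noncoding RNA and Zfp862 a transcribed pseudogene in that table, and both had a listed ORF.

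The listed starts could be checked on letters for a small number of families. RefSeq promoter windows of the GRCm38.p6 build run from 250 bases before to 50 bases after a gene's first base, and a start within them was read at the offset that the listed transcript gives. This takes the first base of both transcripts to be the same, which ATG at the offset then checks. ATG stood there for 562 of 966 families with such a main start (58.2%), against 0.518% to 1.14% at each of the 10 positions before it. In the zinc finger families it stood there for 9 of 14 main ORFs. In all, 18 Zfp ORFs of 17 families had ATG at their offset, and none of the 18 had an in-frame stop before its listed end or the end of the window. The window ends 50 bases after the first base, so few codons could be read. The absence of a stop over so few codons says little about the frame. Of the 17 distinct starts of the 18 ORFs, 13 had a purine 3 bases before ATG (76.5%) and 11 had G after it (64.7%). These positions matter most for start recognition. In the whole list 90.2% and 75.4% of 684 starts had these bases. With 17 starts and no interval, no difference is read from these shares. The following main starts are shown because the leader is short enough to be read, with ATG in capitals. Zfp341 and Zfp277 were picked after their values were seen.
Zfp341: agctccaagATGgcgcaggcgatcttc
Zfp292: gctgcgaagATGgcggacgatgaggcc
Zfp830: ggcgcaaacATGgcgtcctccacctct
Zfp143: tcctggtgcATGgtggtcggacgaagg
Zfp277: tgccaggtaATGgctgctagtgaggtc

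These RefSeq stretches lie at chr2:154613363-154613389 (plus strand, Zfp341), chr4:34882902-34882928 (minus, Zfp292), chr11:82764363-82764389 (plus, Zfp830), chr7:110061725-110061751 (plus, Zfp143) and chr12:40445742-40445768 (minus, Zfp277) of GRCm38.p6. Zfp292, Zfp341 and Zfp830 have A 3 bases before ATG and G after it. Zfp143 has T 3 bases before its ATG, and its ORF scored 842, while a start 15 codons later scored 822 in both of its splice forms. The leader of Zfp341 was listed with 4 bases, the shortest of the 209 families, so the letters farther before its ATG lie ahead of the listed transcript.

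An ORF upstream of or across the main start was listed for 51 of 209 families (24.4%, interval 18.7 to 30.8), with 20.2% over all families and 20.1% over the others. The 86 such ORFs used 73 distinct stop codons, 28 of them were spliced, and 83 had fewer than 100 codons. Their median length was 18.5 codons against 19, and their median score 761.5 against 770. A score of 900 or more was reached by 15 of 86 (17.4%, interval 10.1 to 27.1, against 23.5%). The transcript of 78 of the 86 also held the main start. Where an ORF ended before the main start on such a transcript, a median of 146 bases lay between them (quartiles 83 and 320, n = 69), against 116 bases in the other families.

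The share was higher with a longer leader in both sets. With a leader under 100 bases, 0 of 41 zinc finger families had such an ORF (interval 0 to 8.60%), against 4.19% of others. With 100 to 300 bases it was 13 of 91 (14.3%, interval 7.83 to 23.2, against 17.0%). With more than 300 bases it was 38 of 77 (49.4%, interval 37.8 to 61.0, against 37.9%, interval 36.2 to 39.5). In the longest class the intervals still overlapped.

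**Figure D2:**
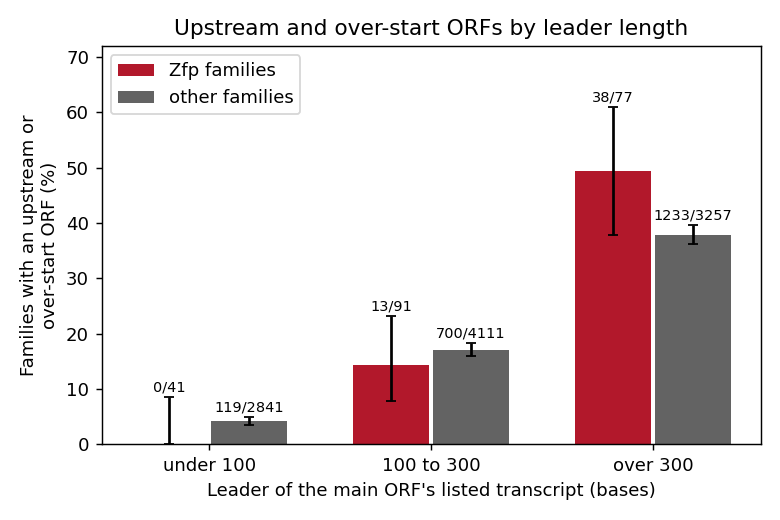
Share of families with an ORF upstream of or across the main start (percent), by the leader length of the main ORF's listed transcript in bases, for Zfp families (red) and other families (grey). Bars give the share, lines its exact 95% interval, and the counts above are families with such an ORF over all families: 0/41, 13/91 and 38/77 in the Zfp families.

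Of the 51 families, 32 had 1 such ORF, 11 had 2, 3 had 3, 4 had 4 and 1 had 7. Zfp664 was the family with 7, spread over a leader of 1162 bases before a main ORF of 204 codons that scored 805. They had 14 to 41 codons and scores of 539 to 787, all under the main score, and ended between 276 and 859 bases before the main start. Zfp146, Zfp426, Zfp68 and Zfp710 had 4 each. Those of Zfp146 scored 554 to 695, just under the main score of 696, while those of Zfp710 scored from 587 to 962, where the main ORF scored 962.

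Among the families with 3, Zfp445 had ORFs of 7, 6 and 5 codons in its leader of 340 bases, scoring 748, 795 and 599 against 884 for the main ORF. The ORF of 7 codons ended 83 bases before the main start. Those of 6 and 5 codons had the same stop, 220 and 135 bases before the main start on the different transcripts listed for them. All 3 upstream ORFs of Zfp180 had the same stop, 91 bases before the main start, with 79, 48 and 34 codons and scores of 624, 796 and 532. Those of Zfp322a had 39, 29 and 11 codons and 3 stops, and the one of 29 codons scored 913, above its main ORF at 824. Zfp148 had ORFs of 17 and 12 codons, scoring 805 and 912, the latter just above the main score of 909. Zfp26 had ORFs of 35 and 26 codons with 1 stop, scoring 590 and 771 under a main score of 979.

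**Figure D3:**
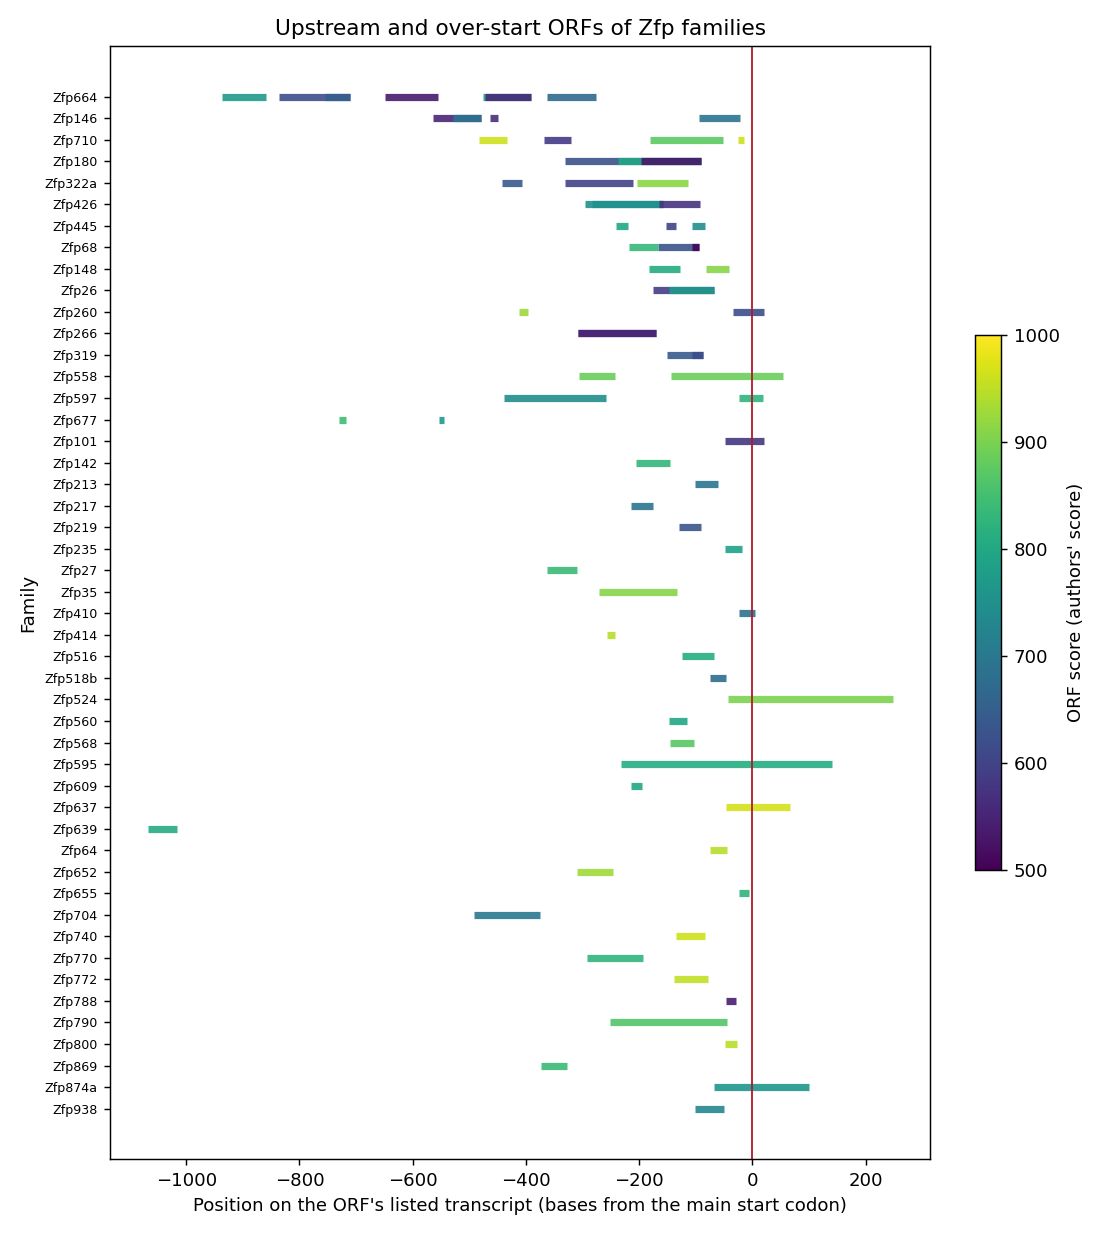
Positions of upstream and over-start ORFs on their listed transcripts, in bases from the main start codon (red line at 0), for the 78 ORFs of 48 Zfp families whose transcript holds that start. Each bar is 1 ORF, families are ordered by their number of ORFs, and the colour gives the authors' score. Zfp664 leads with 7, and bars that cross 0 run over the main start.

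The 10 highest-scoring of these ORFs were short, with 1 exception. The ORF of Zfp637 had 37 codons (chr6:117793288-117793401 of mm9), ran 67 bases past the main start in another frame and scored 968, where the main ORF of 288 codons scored 723. In Zfp710, ORFs of 3 and 15 codons scored 962 and 961, and the shorter ended 14 bases before the main start. An ORF of 16 codons in Zfp740 scored 961 beside a main ORF at 966, and 1 of 6 codons in Zfp800 scored 947, ended 27 bases before the main start and stood beside a main ORF at 946. ORFs of 19 codons in Zfp772, 9 in Zfp64 and 20 in Zfp652 scored 952, 945 and 929, against 854, 863 and 792 for their main ORFs. The exception was an ORF of 304 codons at 948 under the name Zfp595, which lay on a transcript without the main start and is described with the long ORFs.

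Over the set, 27 of 86 such ORFs scored above their own main ORF (31.4%, interval 21.8 to 42.3, against 33.1% elsewhere), in 21 families. Zfp568 was 1 of them, with an ORF of 13 codons at 871 over a main ORF at 532. Zfp639 was another, with 16 codons at 806 that ended 1017 bases before a main start at 634, the widest gap measured. That main ORF had 180 codons in 1 coding exon, after a leader of 1365 bases. It need not be the coding sequence of the known protein, and the gap depends on it. The ORF of 12 codons in Zfp217 scored 693 under its main ORF at 888.

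Of the shortest ORFs, those under 10 codons, there were 21 among the 86 (24.4%, interval 15.8 to 34.9, against 28.4%). A whole ORF could be read in the RefSeq windows for Zfp414 and Zfp677, which are shown with the start and stop codons in capitals. The first was chosen by its score, and the second because it fits whole in the window. The ORF of Zfp869, also picked after its values were seen, is shown for the first codons only.
Zfp414: agcgggaaaATGgcgccgatgTGA
Zfp677: agtaaaaagATGgtacacTGA
Zfp869: tccgccgccATGctgcagattctgttc

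The stop codon stood at the listed end in both whole ORFs. They lie at chr17:33629103-33629126 and chr17:21383758-21383778 (plus strand), and that of Zfp869 begins at chr8:69716863-69716889 (minus strand), all in GRCm38.p6. The ORF of Zfp414 had 4 codons, of which the last is again atg, and scored 946, far above a main ORF of 86 codons that scored 570. It ended 242 bases before that main start. The ORF of Zfp677 had 3 codons, began 19 bases into the transcript and scored 843, above its main ORF of 494 codons at 690. That of Zfp869 had 14 codons and scored 838, under its main ORF of 529 codons at 944. All 3 have A or G 3 bases before ATG.

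At least 1 other in-frame start was listed for 46 of 209 families (22.0%, interval 16.6 to 28.2), with 23% over all families. The 65 ORFs of this kind were shorter than the main ORF by a median of 22 codons (28 in the other families), 9 of them by 1 to 3 codons and 11 by over 100. They had 61 distinct starts, of which 55 lay at a codon of the main ORF (90.2%, against 92.7%). Of the rest, 3 lay before the main start and 3 after it at a base that the main ORF does not read as a codon start, and these ORFs join its frame farther on. At 4 starts 2 splice forms were listed, each pair with 1 score. The 65 ORFs scored above the main ORF in 24 of 65 cases (36.9%, interval 25.3 to 49.8, against 42.8%), below it in 40 and level with it in 1. Those above had 23 starts in 20 families. At 1 of the next 10 codons of the main ORF lay 18 of the 61 starts (29.5%, interval 18.5 to 42.6, against 24.7%), of which 7 scored above the main ORF.

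**Figure D4:**
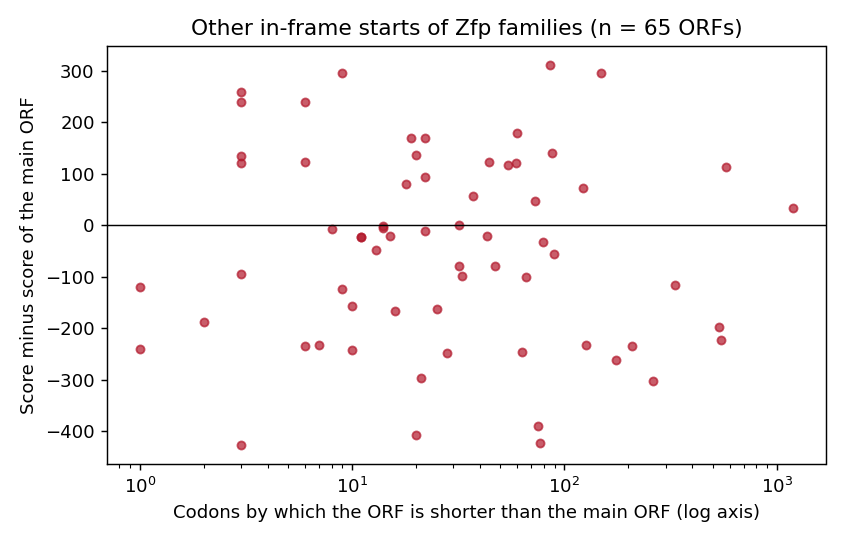
Score of each of the 65 other in-frame starts minus the score of its main ORF, against the number of codons by which it is shorter than the main ORF (log axis). Points above the line at 0 are the 24 that scored above their main ORF, and they occur at small and at large differences in length.

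Starts a few codons apart could differ widely in score. In Zfp119a the main ORF of 545 codons scored 518 and the ORF of 542 codons 652, and in Zfp157, picked after its values were seen, 567 codons scored 541 and 564 codons 780. In Zfp568 the main ORF of 671 codons scored 532 and the start 6 codons later 771. In Zfp472 the start 9 codons later scored 813, in splice forms of 534 and 394 codons, and the start that leaves 525 codons scored 597, where the full 543 codons scored 518. Zfp1 had 2 other starts, neither at a codon of the main ORF. That of 416 codons scored 782 and that with splice forms of 403 and 388 codons 532, against 612 for the main ORF of 435. The other direction also occurred: Zfp622 scored 872 for the full 486 codons and 629 for the start 10 codons later.

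Zfp68 had the most ORFs of any of the families, 9, with 4 upstream and 4 other in-frame starts. The main ORF of 606 codons scored 523, the starts that leave 600, 598 and 569 codons scored 646, 516 and 580, and a start that leaves the last 28 codons scored 636. Its upstream ORFs of 23, 16, 7 and 3 codons scored 625, 833, 693 and 505. No start of this family scored as high as its upstream ORF of 16 codons.

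Other starts lay farther into the ORF. In Zfp263 the starts at 680, 661 and 176 codons scored 886, 516 and 541, against 763 for the full 724 codons. In Zfp281 the starts at 853 and 797 codons scored 564 and 737, against 664 for 919. In Zfp110, a factor that binds the p75 neurotrophin receptor, the ORF of 832 codons scored 857 and the full ORF of 854 codons 687. Zfp706, a small protein that helps mouse embryonic stem cells leave self-renewal, had 115 codons at 541 and a start for the last 29 codons at 852. The stop of its main ORF lay before the last exon, with 3909 transcript bases after it. This main ORF need not be the coding sequence of the known protein. Zfp644 was a case of starts before the main one. An ORF of 105 codons over 3 coding exons began 28202 bases before the main start in the genome and scored 801, against 767 for the main ORF of 1298 codons, on a transcript without the main start. A start 28224 bases before it had splice forms of 1292 and 1090 codons, both at 532. The shorter ORF of Zfp318, with 2062 codons, scored 532, below the 793 of the full ORF.

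In-frame isoforms, which share codons with the main ORF but end at another stop, were listed for 22 of 209 families (10.5%, interval 6.72 to 15.5), with 6.75% over all families. Of the 26 isoforms, 19 began at the main start. For 16 of these 19 (84.2%, interval 60.4 to 96.6), no codon lay in frame in the largest coding exon of the main ORF, against 333 of 627 in the other families (53.1%, interval 49.1 to 57.1). Of the 16, 11 had no coding base in that exon (57.9% of the 19, interval 33.5 to 79.7, against 46.1%) and 5 had bases of it in another frame alone (26.3%, interval 9.15 to 51.2, against 7.02%). In the zinc finger families that exon holds most of the coding bases and is read as the finger exon from background knowledge, since no protein sequence was analysed here. By definition an isoform ends at another stop than the main ORF. Where the largest exon is the last coding one, reading on in frame leads to the main stop and to another class. That exon was the last coding one and held over 50% of the ORF in 70.8% of zinc finger families and 14.3% of others. The shares of 84.2% and 53.1% are thus set in part by the class rule, and nothing about finger exons is read from them. Zfp26 had isoforms of 233 and 227 codons that scored 624 each, of which 202 codons were shared with the main ORF of 959 codons, and both read 78 bases of the large exon in another frame. The other isoforms named here were picked after their values were seen. Zfp560 had one of 39 codons at 947 with no base of the large exon, above its main ORF of 754 codons at 617. Zfp952 had one of 179 codons at 930, above 504 codons at 810, with 221 bases of the exon in another frame. Zfp46 and Zfp275 had isoforms of 41 and 14 codons at 951 and 927, beside main ORFs at 943 and 968.

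Variants that kept both the main start and the main stop always carried the main score. This held for 21 of 21 such ORFs in the zinc finger families and for 2422 of 2422 in the others. Zfp207 had ORFs of 479, 464 and 460 codons, all at 990 like the main ORF of 495. Zfp106 had 1860 and 1796 codons at 952, like the full 1888. The score therefore does not separate splice variants of this kind, and it counts them alike. Isoforms that share the start alone seldom carried the main score (1 of 19, against 15 of 627), and other in-frame starts did so in 1 of 65 and 12 of 3341 cases.

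The main ORF was under 100 codons in 9 of 209 families (4.31%, interval 1.99 to 8.02), with 5.37% over all families. The shortest was in Zfp775, with 2 codons at a score of 783 and 4047 transcript bases after its stop. Zfp598, whose human counterpart marks collided ribosomes with ubiquitin, had 1 ORF of 20 codons scoring 525, with 2670 transcript bases before it and 554 after. The ORF of Zfp605 had 51 codons at 552 and 2806 bases after its stop. Of those picked after their values were seen, Zfp938 had 64 codons at 929 with 1819 bases after the stop, and the pseudogene Zfp862 had 80 codons at 767 with 5650 bases. For such families the longest listed ORF need not be the coding sequence, and ORFs of other classes then have another reference point.

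Many of the families lay near others in the genome. Chromosome 7 held 46 of 209 (22.0%), and 752 of all 10418 families lay there. Chromosome 17 held 25 of the 209, with 534 of all families. Chromosomes 8, 9 and 13 held 16 each, with 561, 557 and 411 of all families. With neighbours at most 100 kb apart, 75 families fell into 17 clusters of at least 3, and 114 stood alone. No such count is given for other sets of genes, so whether this is more than usual was not tested. The largest clusters had 8 families each, at chr17:32902442-33247649 and chr7:30553571-30954746 of mm9. The first holds Zfp472 and Zfp952, and the other holds Zfp84, Zfp146 and Zfp568, among others. Most of the ORF lay in the last coding exon in 68 of 75 clustered families (90.7%, interval 81.7 to 96.2) and in 80 of the 134 families outside them, alone or in pairs (59.7%, interval 50.9 to 68.1). The share with an upstream or over-start ORF was 24.0% (interval 14.9 to 35.3) in the clusters and 24.6% (interval 17.6 to 32.8) outside, and median main scores were 817 and 843.

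Some entries within clusters had equal values. Zfp433 had 2 families on chromosome 10, at chr10:81167610-81184213 and chr10:81326719-81343323, each with a main ORF of 611 codons at 669 and a start that leaves 600 codons at 646. A start that leaves 597 codons scored 668 in 1 and 664 in the other. Zfp781 had 2, each with 1 ORF of 32 codons at 693. Zfp97 and the second entry of Zfp960 both had 546 codons at 930. The sources used here do not state how footprints that match both copies were counted, so the scores of these pairs are uncertain.

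Under 6 names (2.87%, interval 1.06 to 6.14), a second ORF of 250 codons or more lay outside the main frame, with 0.96% over all families. Zfp51 had 3, of 724, 462 and 460 codons scoring 900, 801 and 774, where its main ORF of 751 codons scored 784. Their starts lay 127247, 263044 and 229786 bases beyond the main start in the genome. Zfp595 had the upstream ORF of 304 codons at 948, with its start 39558 bases from that of the main ORF of 622 codons at 772. The 3 ORFs of Zfp51 and that of Zfp595 were on transcripts that do not hold the main start. The same was true of those of Zfp429, Zfp747, Zfp772 and Zfp874a. The main ORF of Zfp53 (chr17:21628247-21646629) lay between that of Zfp51 (chr17:21564763-21602434) and all 3 long ORFs of Zfp51. That of Zfp948 (chr17:21720080-21725518) lay before those of 462 and 460 codons. The 3 long ORFs under the name Zfp51 thus lay beyond the main ORF of another named family. Whether the long ORFs of the 6 names are neighbouring genes under a common name was not tested otherwise, since no annotation of the mm9 build was used here.

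Other zinc finger names gave shares with wide intervals. An upstream or over-start ORF was listed for 10 of 32 Zbtb families, proteins with a BTB domain before the fingers, for 4 of 13 Zkscan or Zscan families, which carry a SCAN domain, for 3 of 12 Klf families and for 4 of 13 Zc3h families, whose fingers bind RNA. In this order the intervals were 16.1 to 50.0%, 9.09 to 61.4%, 5.49 to 57.2% and 9.09 to 61.4%. The 20.2% of all families and the Zfp share of 24.4% lay within each of them. The layout with over 50% of the ORF in a large last coding exon was seen in 15.5% of all families. It was found in 17 of 32 Zbtb (53.1%, interval 34.7 to 70.9), 8 of 13 Zkscan or Zscan, 0 of 12 Klf and 3 of 13 Zc3h families. A main score of 900 or more was given to 10 of 32, 5 of 13, 4 of 12 and 7 of 13 of these. The Zfp share of 29.7% lay within the intervals of all 4 names: Zbtb (16.1 to 50.0), Zkscan or Zscan (13.9 to 68.4), Klf (9.92 to 65.1) and Zc3h (25.1 to 80.8). The share of all families, 56.7%, also lay within those of Zkscan or Zscan, Klf and Zc3h, and above that of Zbtb.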

How the data were processed

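Ribosome footprints of 37 libraries entered 1 deposited list of 22367 ORFs, named for all libraries in the labels. The deposited score is the authors' value, from 500 to 991. The submitters' processing notes name Bowtie2, TopHat and mm9, without version or role. The ORF caller is not given in the sources used here, nor is what the score measures. Members, gene lists and settings were chosen with earlier results of these data known. Families are split by chromosome and strand, and the longest ORF is the main one (ties by score, then name). Codon numbers leave out the stop codon, and the length in the name matched the coding bases in all 22367 lines. Coordinates are mm9 unless GRCm38.p6 is named. Of 209 family names, 200 matched a RefSeq symbol, 4 did so after a suffix was dropped and 5 were older names.

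Genes were named by rule: the 10 families each with the most ORFs, upstream ORFs and in-frame starts, the 10 highest-scoring upstream ORFs, the 5 longest, shortest, highest-scoring and lowest-scoring main ORFs, names with several entries, and 24 set genes; the text names most of these. Python 3.11.15, numpy 2.4.6 and scipy 1.17.1 were used. Tested on simulated data, the class rules placed 3500 of 3500 ORFs of 500 families correctly. All ORFs of a simulated family had the same exons, so the rules were not tested on splicing. Neither splice variants nor ORFs across the main stop were simulated. The list gives no value or depth for any library, so no test was made and no replicate error can be given. Protein lengths and finger counts were not analysed, since no protein table was used here.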

Additional observations from a re-analysis of the deposited data

How the results depend on the processing

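Of 56 alternatives tried on 6 results, 40 left the value within its interval and 16 moved it out. Keeping ORFs with a score of 900 or more left 81 families. The share with an upstream or over-start ORF was then 6.17% (others 5.70%) and that with another in-frame start 0% (others 0.433%). The median main length was 535 codons (others 367) and the median main score 938 (others 962). The median upstream ORF length was 9 codons (others 15), but from 6 ORFs only (interval 3 to 16). The share of RefSeq Zfp symbols listed was 19.6%. Keeping ORFs that scored 847, the list's median, or more, these shares were 7.56% (others 7.92%), 0% (others 1.22%) and 29.3%, and the main score was 922. With ORFs of at least 30 codons, the upstream share was 9.66% (others 8.57%) and the upstream length 45 codons (others 50). Taking as main the ORF with the highest score, the medians were 546 codons (others 381), a score of 867 (others 943) and an upstream length of 26 codons (others 24). In families whose main ORF reached 926, the median of all main ORFs, the in-frame share was 10.6% (others 8.69%). Score filters leave fewer ORFs by construction; the cause was not tested otherwise. Neither 1 ORF per stop codon, membership by current symbol, 1 family per gene nor leaving out ORFs across the main start moved a value out of its interval. Nor did 3 alternatives chosen after seeing the data: without families with long ORFs outside the main frame, with main ORFs of at least 100 codons, and without second copies. No paired analysis was possible because the list holds no value per library, and for the same reason no library could be left out. The comparison with RefSeq protein lengths was not run.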

Other observations

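Of 40 genes in a list of cofactors of KRAB zinc finger proteins and heterochromatin proteins, 35 had an ORF (87.5%, interval 73.2 to 95.8), where 43.1% of all protein-coding symbols did. No ORF was listed under the names Chd3, Mta2, Fam208a, Dnmt3b or Suv39h2. The main ORFs of the 35 had a median of 594 codons and a median score of 918, against 435 codons and 926 over all families. Trim28, the corepressor that binds the KRAB box, had 1 main ORF of 834 codons at 883, and Setdb1, the methyltransferase it recruits, had 1308 codons at 896. Chd4, the remodelling subunit of the NuRD complex, had 1914 codons at 891, and the maintenance methyltransferase Dnmt1 had 1620 codons at 987. An upstream or over-start ORF was listed for 4 of the 35 (11.4%, interval 3.20 to 26.7, with 20.2% over all families), Mbd2, Atrx, Suv39h1 and Rcor1, and another in-frame start for 8 (22.9%, interval 10.4 to 40.1), the share of all families being 23%. Mta3 was listed with 4 codons at 541 alone.

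Zfp410, whose human counterpart controls the level of CHD4, had 6 ORFs. Its main ORF of 498 codons and a splice variant of 357 codons scored 576 each, a start 20 codons later scored 713, and an ORF of 8 codons across the main start scored 684. An ORF of 8 codons within the main span scored 911, the highest of the 6.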
